A study of Homo sapiens with 12 samples.

Results

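Chromatin has to be copied together with the DNA at every cell division, and 10 genes of this work were read in HuH-7 cells treated with the compound SLMP53-2: UHRF1, DNMT1, HELLS, EZH2, CHAF1A, CHAF1B, ASF1B, TOP2A, HMGB2 and MKI67. They were found by name, as the gene probes that the scanner output gives under these 10 symbols, and 11 of the 41000 gene probes of the array matched, since UHRF1 has 2. The array names 29245 genes in all. HuH-7 is a human hepatocellular carcinoma line, and its p53 carries the Y220C mutation on all 12 arrays. Cells were exposed for 24 h to the solvent DMSO, to 28 µM SLMP53-2 or to 42 µM SLMP53-2, which are 2 and 3 times the IC50 for growth, and each of the 3 groups holds 4 biological replicates, each on an array of its own. One part of the labels gives 48 µM in place of 42 µM for the same arrays. No cells without p53 are among these 12 arrays, so what depends on the mutant protein cannot be told apart from what does not, and all values come from a single cell line.

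UHRF1 binds hemimethylated DNA behind the replication fork and brings in DNMT1, the enzyme that copies the methylation pattern to the new strand, while HELLS is a remodelling ATPase needed for methylation of packed DNA. EZH2 is the catalytic subunit of the Polycomb complex that methylates histone H3 at lysine 27, and CHAF1A, CHAF1B and ASF1B are chaperones that put new histones on replicated DNA. TOP2A untangles the sister DNA molecules, HMGB2 is a DNA-bending protein of the high mobility group, and MKI67 encodes Ki-67, the proliferation marker that coats mitotic chromosomes. Most of these genes are known to be transcribed more in cycling than in resting cells, through E2F sites and through the CCAAT box and the cell cycle homology region (CHR) of their promoters.

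Promoter sequence is shown for UHRF1 and HELLS, which hold an E2F word, and for ASF1B, TOP2A and MKI67, which hold a CHR word. Each line is the 250 bases before a RefSeq transcription start of GRCh38.p14, 5′ to 3′ on the strand of the gene. Capitals mark every match, on either strand, to TTTGAA (the CHR word), CCAAT, or one of the E2F words TTTCGCGC, TTTGGCGC, TTTCCCGC and TTTGCCGC. For UHRF1 the first of 3 listed starts is given.
UHRF1, chr19:4909251-4909500, plus strand: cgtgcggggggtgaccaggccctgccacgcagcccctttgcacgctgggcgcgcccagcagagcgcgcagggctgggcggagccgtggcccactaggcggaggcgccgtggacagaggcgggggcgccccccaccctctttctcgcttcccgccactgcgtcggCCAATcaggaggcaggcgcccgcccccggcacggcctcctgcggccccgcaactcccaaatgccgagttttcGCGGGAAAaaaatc
HELLS, chr10:94545538-94545787, plus strand: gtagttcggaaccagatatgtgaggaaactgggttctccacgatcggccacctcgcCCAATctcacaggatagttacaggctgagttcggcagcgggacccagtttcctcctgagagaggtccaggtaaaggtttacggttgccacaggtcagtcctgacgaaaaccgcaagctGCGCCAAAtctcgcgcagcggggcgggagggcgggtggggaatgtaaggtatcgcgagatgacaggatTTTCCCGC
ASF1B, chr19:14136590-14136839, minus strand: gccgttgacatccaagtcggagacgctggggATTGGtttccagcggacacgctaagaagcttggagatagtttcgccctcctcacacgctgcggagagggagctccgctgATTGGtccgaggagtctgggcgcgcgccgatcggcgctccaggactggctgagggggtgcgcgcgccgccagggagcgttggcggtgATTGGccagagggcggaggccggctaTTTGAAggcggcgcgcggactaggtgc
TOP2A, chr17:40417897-40418146, minus strand: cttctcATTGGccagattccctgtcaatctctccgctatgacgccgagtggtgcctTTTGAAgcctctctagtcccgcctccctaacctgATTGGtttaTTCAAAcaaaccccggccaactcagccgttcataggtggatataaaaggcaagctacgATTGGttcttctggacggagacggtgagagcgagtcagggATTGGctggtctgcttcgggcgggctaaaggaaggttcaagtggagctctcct
MKI67, chr10:128126424-128126673, minus strand: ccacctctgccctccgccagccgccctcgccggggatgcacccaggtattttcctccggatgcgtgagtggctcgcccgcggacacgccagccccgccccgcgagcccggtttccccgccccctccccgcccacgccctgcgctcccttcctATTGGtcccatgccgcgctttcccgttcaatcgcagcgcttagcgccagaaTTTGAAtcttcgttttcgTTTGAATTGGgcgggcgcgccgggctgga

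In MKI67 one CHR match and one CCAAT match, read on the other strand, overlap. Of the 10 genes, 9 were in the RefSeq promoter table, with 12 starts, and HMGB2 was not. The CHR word was found in 3 of the 12 windows against 13.3% of all 35116 windows of this length, those of ASF1B, TOP2A and MKI67. CCAAT was present in 8 windows of 7 genes, the 5 shown with EZH2 and CHAF1A, against 32.0% of all windows. An E2F word was found in 3 windows, 2 of UHRF1 and 1 of HELLS, against 2.79% of all. These are matches of letters only.

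The 11 probes are 60-mers whose positions the scanner output gives on hg19. The probes of UHRF1 are A_23_P208880 (chr19:4962065-4962124, plus strand) and A_32_P101235 (chr19:4956748-4956807, plus strand). A_32_P101235, the only UHRF1 probe to pass the test below, reads this stretch.
UHRF1 A_32_P101235: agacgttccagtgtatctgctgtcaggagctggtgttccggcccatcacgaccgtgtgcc
The others lie on the minus strand for DNMT1 (chr19:10246808-10246867), EZH2 (chr7:148504521-148504580), ASF1B (chr19:14230638-14230697), TOP2A (chr17:38545709-38545768), HMGB2 (chr4:174253013-174253072) and MKI67 (chr10:129895641-129895700). Those of HELLS (chr10:96354481-96354540), CHAF1A (chr19:4443140-4443199) and CHAF1B (chr21:37788958-37789017) lie on the plus strand. The files do not say which exon or untranslated part a probe covers.

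All 11 probes were well above background on 12 of 12 arrays, and no spot was saturated. Background-corrected, quantile-normalized brightness is given as a log2 value, on which a step of 1 is a doubling, and levels of different probes cannot be set against each other. The dimmest were MKI67, with a mean spot intensity between 139 and 604 over a background of 52 to 70, and UHRF1 A_32_P101235, between 171 and 380. The arrays had 65.0% to 85.0% of their gene spots above background. The labelled cell type was checked on 10 hepatocyte and hepatoma markers: 9 were above background on every array and TTR on 11, with mean log2 values from 6.67 for HNF4A to 16.12 for ALB. Of 10 markers of blood, endothelial, stromal and basal epithelial cells, 5 were above background on every array and PTPRC on 0, with means from 5.69 to 7.79, a range that includes that of HNF4A. RNA came from whole wells, so fewer cells in cycle and less RNA per cell cannot be told apart in any value below.

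One library stood apart. On the array of 28 µM replicate 4, the median of the 10 genes was 0.11 above the mean of the DMSO arrays on the log2 scale, whereas replicates 1, 2 and 3 of that group were at -0.60, -0.74 and -0.62. Only 2 of the 10 genes lay below the DMSO mean on replicate 4, against 10, 10 and 9 on the other three. The 4 DMSO arrays ranged from -0.20 to 0.14, and the 42 µM arrays stood at -1.13, -1.15, -0.79 and -0.40. Results at 28 µM are therefore given with and without replicate 4. It was singled out by the values of these same genes, so results without it are no independent support.

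**Figure D1:**
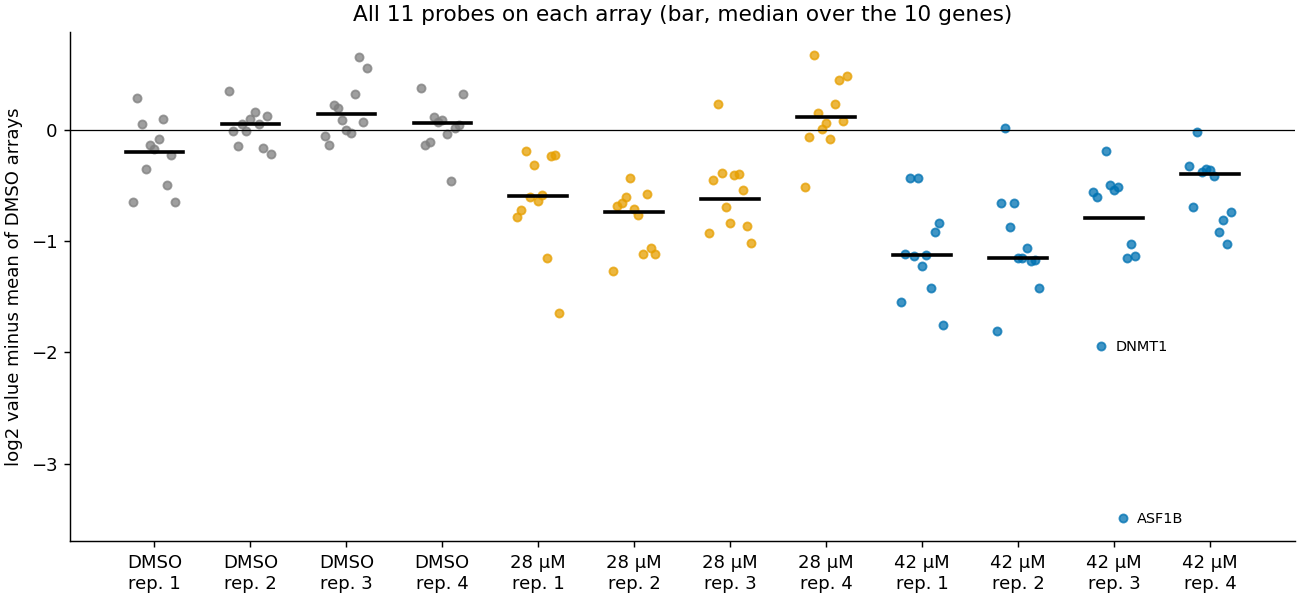
Each point is 1 of the 11 probes on 1 of the 12 arrays, as its normalized log2 value minus the mean of the 4 DMSO arrays, and the bar is the median over the 10 genes (UHRF1 by its brighter probe). The bars of 28 µM replicate 4 (0.11) and of the DMSO arrays (-0.20 to 0.14) share a range, and the other treated arrays lie between -1.15 and -0.40; ASF1B and DNMT1 fall far below the rest on 42 µM replicate 3.

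A second irregularity concerns the edge of the array. ASF1B and DNMT1 both lie in the last of its 85 columns, where 42 µM replicate 3 was dim: the 319 tested probes of that column differed from the other 42 µM arrays by a median of -0.57, and 31.1% of them were lower by more than 1. In the other columns of the same array the median was 0.01 and the share 0.544%. DMSO replicate 4 had a similar edge, with a median of -0.51 and 13.9%. The fall built up over the last columns, and in column 80, where TOP2A lies, the median of 42 µM replicate 3 was -0.15. Both genes are given with and without these spots below.

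At 42 µM all 11 probes read lower than in DMSO, and 4 of them passed the test: UHRF1 A_32_P101235, CHAF1B, TOP2A and HMGB2. A probe was called when limma's adjusted p, by Benjamini-Hochberg over the 33467 probes tested, was below 0.05 and the log2 fold change at least 0.6 in size. By that rule 1.23% of all tested probes were called lower and 1.41% higher. Log2 fold changes of the 11 ran from -1.72 for ASF1B to -0.49 for EZH2, with a median of -0.92 over the 10 genes and of -0.02 over all 24251 genes tested. At an unadjusted p under 0.05 and past the fold limit there were 9 of the 11, against 2.1% of all probes read lower. On 8 of the 11 probes every 42 µM array lay below every DMSO array, which 6.49% of the tested probes also did. The number of calls moved with single arrays, and so did the share of all tested probes called lower. Without DMSO replicate 2 or 42 µM replicate 2 it was 0 of the 11 and 0% of all probes, so those fits say nothing about the 11 in particular. It was 0 of the 11 without DMSO replicate 1 (0.382% of all probes), 3 (0.613%) or 4 (0.484%). It was 1 without 42 µM replicate 1 (0.675%), 2 without 42 µM replicate 3 (0.789%) or 28 µM replicate 3 (0.929%), and 6 without 28 µM replicate 4 (1.64%). Over the 12 fits without 1 array, the median over the 10 genes ran from -0.99 to -0.80. With the slide as a block in limma 0 of the 11 and 1 of all tested probes were called, with adjusted p between 0.0598 and 0.0979 for the 4 and 9 of the 11 at unadjusted p under 0.05 past the fold limit.

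**Figure D2:**
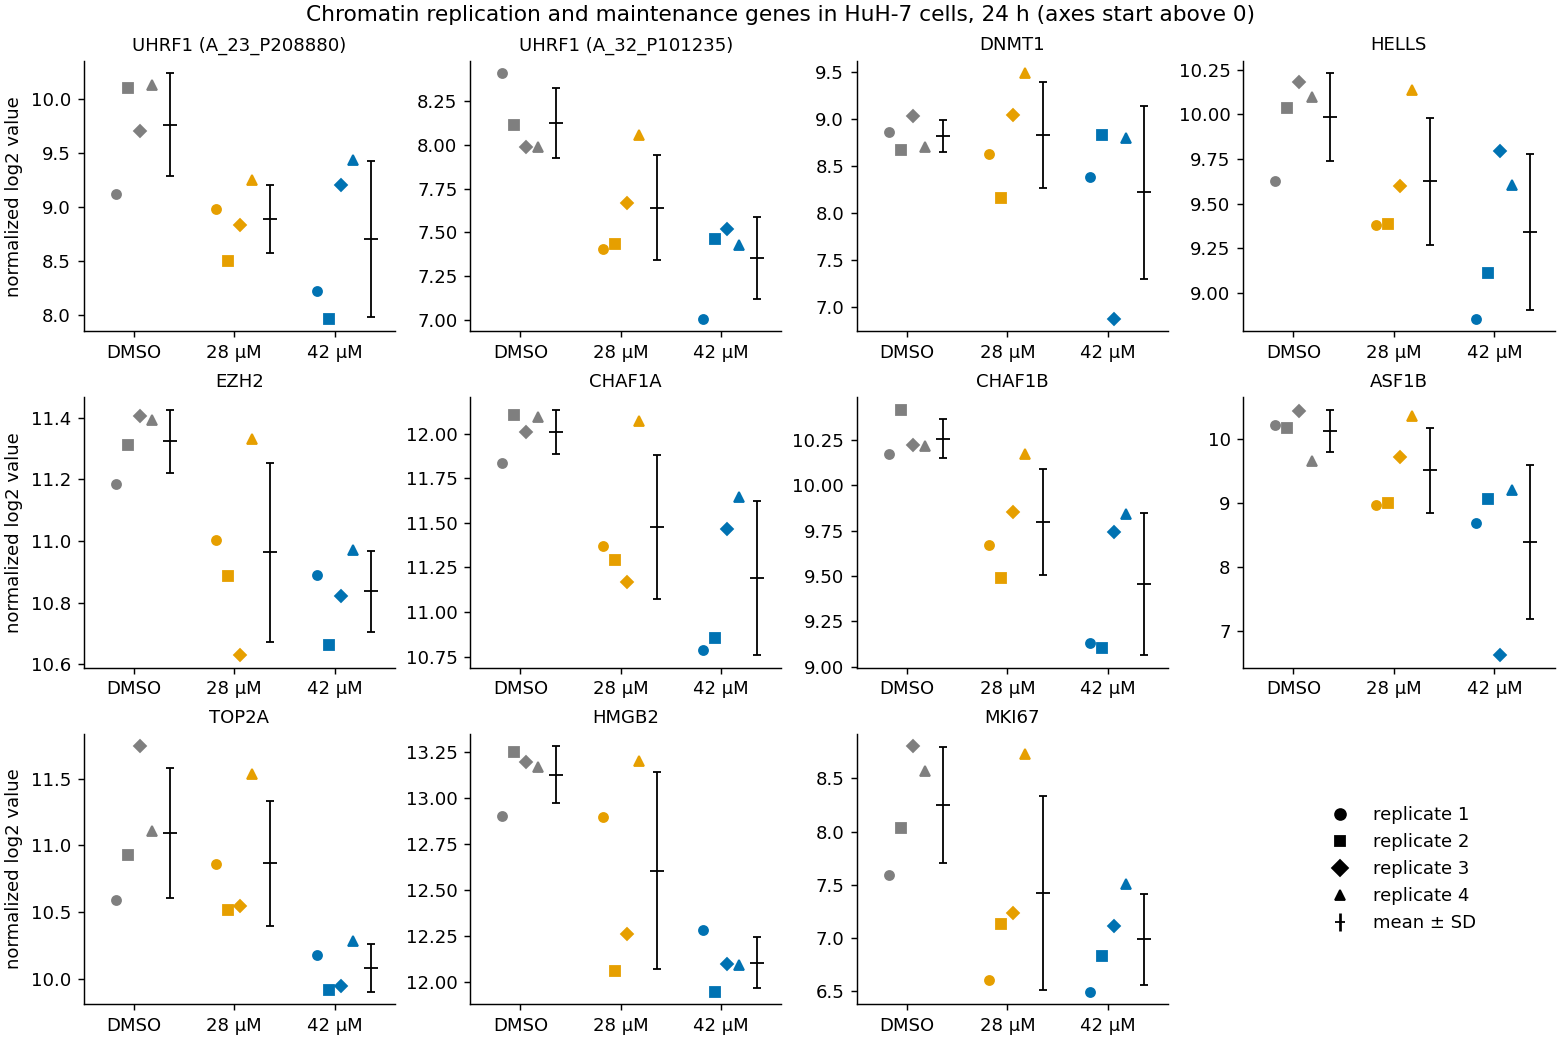
Normalized log2 values of the 11 probes by group, with 1 point per array, a marker per replicate, and the mean ± SD of 4 arrays beside them; the vertical axes differ and do not start at 0. In UHRF1 A_32_P101235, EZH2, CHAF1A, CHAF1B, ASF1B, TOP2A, HMGB2 and MKI67 all 42 µM points lie below all DMSO points, and 28 µM replicate 4 (triangle) is the highest of its group in all 11 panels.

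Of the DNA methylation pair, UHRF1 passed the test at 42 µM by 1 of its 2 probes and DNMT1 did not. UHRF1 read by A_32_P101235 had log2 values of 8.41, 8.12, 7.99 and 7.99 in DMSO replicates 1 to 4, of 7.41, 7.44, 7.67 and 8.06 at 28 µM, and of 7.01, 7.46, 7.52 and 7.43 at 42 µM. All 42 µM arrays were below all DMSO arrays, and at 28 µM replicates 1 to 3 were, while replicate 4 sat among the controls. At 42 µM the mean was 58.6% of that in DMSO (log2 fold change -0.77, SE 0.17, limma's adjusted p = 0.0281). This probe was called in 18 of the 26 alternative fits. The brighter probe A_23_P208880 had 9.12, 10.11, 9.71 and 10.14 in DMSO, 8.98, 8.50, 8.84 and 9.25 at 28 µM, and 8.22, 7.96, 9.21 and 9.44 at 42 µM. Here DMSO replicate 1 lay below 42 µM replicates 3 and 4, so the groups overlap. Its mean at 42 µM was 47.9% of the DMSO mean, a wider change with a wider error (log2 fold change -1.06, SE 0.32, limma's adjusted p = 0.0999), which did not pass. The 2 probes of the gene had the same sign and differed in the call.

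DNMT1, the maintenance methyltransferase, gave 8.86, 8.67, 9.03 and 8.70 in DMSO, 8.62, 8.16, 9.04 and 9.48 at 28 µM, and 8.38, 8.83, 6.88 and 8.79 at 42 µM. The groups overlap at both doses, and the low value of 6.88 is the edge spot on replicate 3. The log2 fold change at 42 µM was -0.60 (SE 0.38, limma's adjusted p = 0.518) with that spot and -0.15 (adjusted p = 0.870) without the last column of that array. Leaving out the last column of DMSO replicate 4 as well gave -0.19.

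Neither the remodeller HELLS nor the Polycomb enzyme EZH2 passed the test at 42 µM, though the 42 µM arrays of EZH2 were all below DMSO. HELLS had 9.63, 10.04, 10.18 and 10.10 in DMSO, 9.38, 9.38, 9.60 and 10.14 at 28 µM, and 8.85, 9.11, 9.80 and 9.61 at 42 µM. Of the 42 µM arrays 3 were below the lowest DMSO array and replicate 3 was not. The log2 fold change was -0.64 (SE 0.22, limma's adjusted p = 0.157). EZH2, with the smallest error of the 11, had 11.18, 11.31, 11.41 and 11.39 in DMSO, 11.00, 10.89, 10.63 and 11.33 at 28 µM, and 10.89, 10.66, 10.82 and 10.97 at 42 µM. The DMSO and 42 µM groups did not overlap, and the change was the smallest of the 11 at 42 µM, to 71.3% of DMSO (-0.49, SE 0.14, limma's adjusted p = 0.0872).

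Among the histone chaperones, the 2 large subunits of chromatin assembly factor 1 had log2 fold changes of like size at 42 µM, and CHAF1B passed the test. CHAF1B, whose probe is spotted 10 times on each array, had 10.17, 10.42, 10.22 and 10.22 in DMSO, 9.67, 9.49, 9.85 and 10.17 at 28 µM, and 9.13, 9.10, 9.74 and 9.84 at 42 µM. All 42 µM values lay below all DMSO values, and the spots of 1 array had an SD between 0.16 and 0.25. CHAF1B fell to 57.3% (-0.80, SE 0.19, limma's adjusted p = 0.0379) and was called in 17 of the 26 alternative fits. For CHAF1A, the largest subunit, DMSO read 11.84, 12.11, 12.01 and 12.09, 28 µM read 11.37, 11.29, 11.17 and 12.07, and 42 µM read 10.79, 10.86, 11.47 and 11.65. The DMSO and 42 µM groups were apart here too, at 56.6% of the DMSO mean, but the test was not passed (-0.82, SE 0.22, limma's adjusted p = 0.0645). Without 28 µM replicate 4 the same change had an adjusted p of 0.0207 by limma. That array was singled out by these same genes, so this is no independent support. CHAF1A was called in 7 of the 26 alternative fits.

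ASF1B, which hands histones H3 and H4 to that factor, read 10.21, 10.17, 10.44 and 9.65 in DMSO, 8.96, 9.003, 9.71 and 10.34 at 28 µM, and 8.69, 9.05, 6.63 and 9.20 at 42 µM. All 42 µM arrays were below all DMSO arrays, of which the lowest, replicate 4, is the other one with a dim edge. The log2 fold change was -1.72 (SE 0.48, limma's adjusted p = 0.0743). Without the edge spot of 42 µM replicate 3 it was -1.14 (adjusted p = 0.0681), and without that of DMSO replicate 4 as well it was -1.29, with an adjusted p of 0.04996 that is just inside the limit.

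Of the chromosome architecture genes, HMGB2 and TOP2A fell to about the same share at 42 µM. HMGB2 had 12.90, 13.25, 13.19 and 13.16 in DMSO, 12.89, 12.06, 12.26 and 13.20 at 28 µM, and 12.29, 11.95, 12.10 and 12.09 at 42 µM. The 42 µM arrays were close together and all below DMSO, while the 28 µM arrays split, 2 with DMSO and 2 with 42 µM. HMGB2 fell to 49.4% (-1.02, SE 0.21, limma's adjusted p = 0.0229), the smallest adjusted p of the 11. It was called in 19 of the 26 alternative fits.

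TOP2A gave 10.59, 10.93, 11.75 and 11.11 in DMSO, 10.86, 10.52, 10.55 and 11.53 at 28 µM, and 10.18, 9.91, 9.94 and 10.28 at 42 µM. The 42 µM arrays were below all arrays of both other groups, and those 2 groups overlapped. TOP2A fell to 49.5% at 42 µM (-1.02, SE 0.25, limma's adjusted p = 0.0452). It was called in only 13 of the 26 alternative fits.

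MKI67, the proliferation marker, read 7.59, 8.03, 8.80 and 8.57 in DMSO, 6.60, 7.13, 7.23 and 8.73 at 28 µM, and 6.49, 6.82, 7.11 and 7.51 at 42 µM. No 42 µM array reached the lowest DMSO array, though DMSO itself spread over more than a doubling. The mean at 42 µM was 41.6% of that in DMSO (-1.26, SE 0.39), and limma's adjusted p of 0.111 did not pass. Without 28 µM replicate 4, which enters the shared estimate of the spread, the same change had an adjusted p of 0.0188 by limma. Since that array was singled out by these same genes, this is no independent support. MKI67 was called in 4 of the 26 alternative fits.

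At 28 µM, 10 of the 11 probes read lower than DMSO and 0 were called by limma, as were 0% of all tested probes. At an unadjusted p under 0.05 and past the fold limit there was 1, UHRF1 A_23_P208880, against 1.02% of all probes read lower. The smallest adjusted p was 0.310, and the median over the 10 genes was -0.49 against -0.02 over all genes. On 0 of the 11 probes did the groups separate, against 2.68% of all. UHRF1 was at -0.88 (95% interval -1.57 to -0.18) by A_23_P208880 and at -0.48 (-0.85 to -0.12) by A_32_P101235. MKI67 was at -0.82 (-1.68 to 0.03), CHAF1A at -0.53 (-1.01 to -0.06), HMGB2 at -0.52 (-0.97 to -0.07), CHAF1B at -0.46 (-0.87 to -0.05) and EZH2 at -0.36 (-0.67 to -0.06). TOP2A, at -0.23 (-0.77 to 0.31), HELLS, at -0.36 (-0.84 to 0.12), ASF1B, at -0.61 (-1.64 to 0.42), and DNMT1, at 0.01 (-0.80 to 0.82), had intervals that include 0, as did MKI67.

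Without 28 µM replicate 4, singled out because these genes read high on it, the median over the genes was -0.65. The probe of MKI67 was then called (-1.26, limma's adjusted p = 0.0458), as were 0.84% of all tested probes in that direction. On 8 probes the remaining 3 arrays all lay below the 4 DMSO arrays, against 7.44% of all tested probes. The 8 were both probes of UHRF1 and those of HELLS, EZH2, CHAF1A, CHAF1B, HMGB2 and MKI67. DNMT1 turned to -0.21, and TOP2A was at -0.45 (adjusted p = 0.356).

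**Figure D3:**
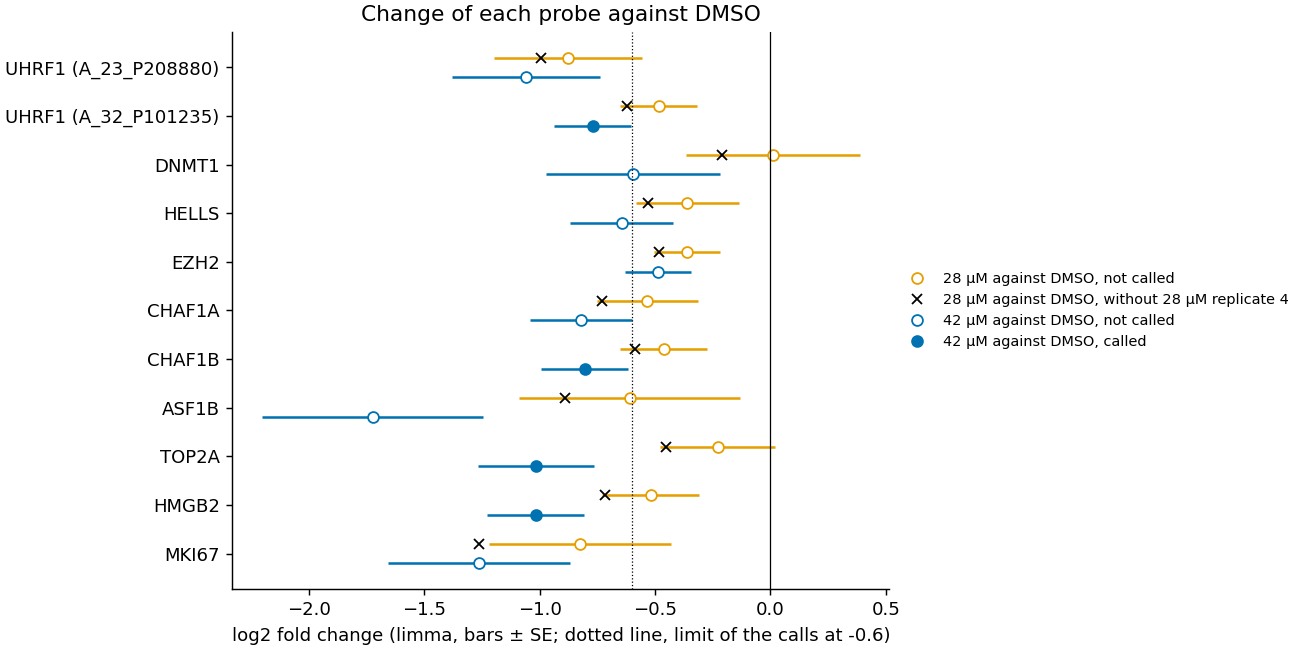
Log2 fold change of each probe against DMSO with ± SE from limma, at 28 µM (orange) and 42 µM (blue), filled where called; crosses give 28 µM without its replicate 4. Filled points are UHRF1 A_32_P101235 (-0.77), CHAF1B (-0.80), TOP2A (-1.02) and HMGB2 (-1.02). The crosses lie left of the orange points for all 11 probes, as they must, since replicate 4 was the highest of its group on each.

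The 2 doses share the DMSO arrays, so their changes are not independent and were compared directly. Group means ran down from DMSO over 28 µM to 42 µM on 10 of the 11 probes, DNMT1 being the exception, and on 21.3% of all tested probes. Between 42 µM and 28 µM limma called 0 of the 11 and 0% of all probes. At an unadjusted p under 0.05 and past the fold limit there were 2 of the 11, against 0.167% of all probes read lower. The 2 were ASF1B (-1.11) and TOP2A (-0.79), and HMGB2 was at -0.50. ASF1B was at -0.53 without the last column of 42 µM replicate 3. TOP2A was the only probe of the 11 with every 42 µM array below every 28 µM array, which 0.85% of all probes also were, and its 95% interval ran from -1.33 to -0.25. For UHRF1 A_23_P208880 the interval of the difference between doses was -0.88 to 0.51, for MKI67 -1.29 to 0.41 and for EZH2 -0.43 to 0.18. Without 28 µM replicate 4 the difference between doses was -0.0039 for EZH2, -0.0036 for MKI67 and -0.56 for TOP2A.

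A slide held at most 1 array of a group. Within slides, the 42 µM array was below the DMSO array on 11 of 11 probes on each of the 3 slides that hold both, with medians of -0.98, -1.15 and -0.90. The 28 µM array was below DMSO on 10 and 11 probes of 11 on slides 1 and 2 (medians -0.37 and -0.58) and on 7 on slide 4, which holds replicate 4 (-0.05). The 42 µM array was below the 28 µM array on 11 probes on slides 2 and 4 (-0.53 and -1.21) and on only 2 on slide 3 (0.22), which pairs 28 µM replicate 2 with 42 µM replicate 4. The order of the doses did not hold within every slide.

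Several of the genes have relatives in the same family, and the change of each gene was set against that of its relative within the same array. At 42 µM TOP2A was set against TOP2B, the other topoisomerase II gene. Their within-array difference was -2.45, -1.92, -1.21 and -1.77 in DMSO and -3.16, -3.31, -3.10 and -2.51 at 42 µM, groups that do not overlap. The mean at 42 µM minus that in DMSO was -1.18, with TOP2B itself at 0.17. For HMGB2 and HMGB1 it was -0.56, with within-array differences of -0.35, -0.27, 0.12 and -0.26 in DMSO and -0.65, -0.64, -0.82 and -0.89 at 42 µM, also apart. DNMT1 against the de novo enzyme DNMT3A was at -0.72, and at -0.28 without 42 µM replicate 3. Each of these 3 had p = 0.0286 by the exact two-sided permutation test, the smallest that 4 against 4 arrays allow. Over the 16 tests made (8 pairs at 2 doses) the smallest Benjamini-Hochberg value was 0.152, so none passed. A few pairs at the smallest possible p could not pass over 16 tests, so the adjusted values do not decide on single pairs. EZH2 against EZH1 (-0.71, exact p = 0.0571) and ASF1B against ASF1A (-1.25, exact p = 0.0857, and -0.61 without 42 µM replicate 3) were in the same direction. UHRF1 against UHRF2 was at -0.84 (exact p = 0.171), HMGB2 against HMGB3 at -0.14 (exact p = 0.257) and DNMT1 against DNMT3B at 0.27 (exact p = 0.657). At 28 µM the smallest exact p of the 8 pairs was 0.0571, that of DNMT1 and DNMT3B. Their difference was 0.63, with DNMT1 at 0.01 and DNMT3B at -0.62.

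**Figure D4:**
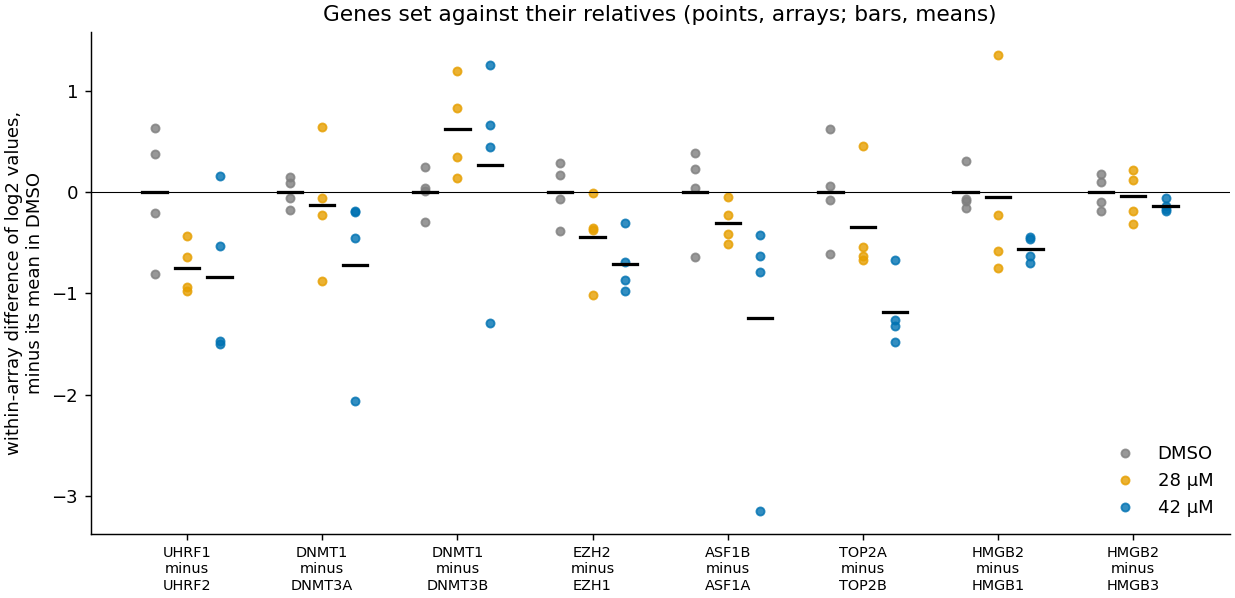
For 8 pairs, the log2 value of the first gene minus that of the second on the same array, shifted so that the DMSO mean is 0; points are arrays, bars the means of 4. The pairs whose 42 µM points all lie below DMSO are TOP2A and TOP2B (mean -1.18), HMGB2 and HMGB1 (-0.56) and DNMT1 and DNMT3A (-0.72), the last with 1 far point from the edge of 42 µM replicate 3.

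A wider set of 99 chromatin genes was drawn up by function, with earlier results of these data known, so its counts are no independent support. Of the 99, 5 were called lower and 0 higher at 42 µM, against 1.42% and 1.57% of all genes by their brightest probe. The median over the 99 was -0.13. The 5 were DNMT3B, PHF19, NASP, HMGB3 and HMGA2. Among the 15 writers, readers and erasers of DNA methylation 1 was called, DNMT3B, a de novo methyltransferase (-0.86, SE 0.16, limma's adjusted p = 0.0166), and the median was -0.10. Of 20 Polycomb genes 1 was called, PHF19, an accessory subunit of the EZH2 complex (-0.96, SE 0.20, limma's adjusted p = 0.0256), with a median of 0.02. Of 18 histone chaperones 1 was called, NASP, a carrier of free histone H3 (-0.70, SE 0.18, limma's adjusted p = 0.0480), with a median of -0.18. Of 10 high mobility group genes 2 were called, HMGB3 (-0.88, SE 0.16, limma's adjusted p = 0.0159) and HMGA2 (-0.79, SE 0.17, limma's adjusted p = 0.0274), with a median of -0.31. No gene was called among 14 heterochromatin proteins and methyltransferases (median -0.19), 14 remodelling ATPases and partners (-0.05), 5 topoisomerases (-0.06) and 5 nucleolar partners of Ki-67 (-0.15). Their widest changes were SUV39H1 at -0.69 (adjusted p = 0.243), SMARCA1 at -0.56 (0.0532), TOP1MT at 0.55 (0.0648) and NOLC1 at -0.32 (0.448). Over the 26 alternative fits HMGB3 was called in 23, DNMT3B in 22, PHF19 and HMGA2 in 19 and NASP in 14. With the slide as a block, or without DMSO replicate 2 or 42 µM replicate 2, 0 of the 5 were called, in fits that called 1, 0 and 0 of all tested probes. At 28 µM 0 of the 99 were called by limma.

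Across the 12 arrays the 55 pairs of the 11 probes correlated with r between 0.11 and 0.95, with a median of 0.74, a description over arrays that share the treatment. The genes whose profile was most like that of UHRF1 (A_23_P208880), among 24241 others by Pearson's r over 12 arrays, were H2BC10 (r = 0.96), PTTG2 (0.95), H2BC20P (0.94), the unnamed transcript THC2572108 (0.94) and C1orf21 (0.93). Histone H2B and PTTG genes have near-identical copies, so these probes may read more than 1 gene. Most like MKI67 were SAPCD2, KIF4A, AURKA and KIF20A (0.98 each) and CRYBG1 (0.97), of which KIF4A, KIF20A and AURKA encode 2 mitotic kinesins and a mitotic kinase. Among these genes the log2 fold change at 42 µM ran from -1.28 for KIF20A to -0.42 for C1orf21. It was -1.09 for AURKA and -1.02 for H2BC10.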

How the data were processed

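Total RNA of 12 cultures was measured on Agilent arrays with 1 dye. The authors deposited, per the labels, the output of Agilent Feature Extraction 10.7.3.1, with spot and local background intensity values, and a table of log2 values that they had corrected (Edwards) and quantile normalized. Depth does not apply: the number of arrays and the signal over background limit the precision.

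Starting again from the intensities in R 4.3.3 with its data.table package, control spots and outliers were removed and limma 3.58.1 was used to correct (Edwards) and quantile normalize the rest, before spots of a probe were averaged. A probe was tested if it was well above background on 2 or more of the 4 arrays of some group, as 33467 of 41000 were. The model (lmFit, eBayes, all 12 arrays, two-sided) was adjusted by Benjamini-Hochberg, with limits of 0.05 on the adjusted p and 0.6 on the log2 fold change. The larger fold limit in the study's methods was an alternative. The brightest probe stands for a gene with several. RefSeq symbols replaced the names of the 28078 probes whose accession matched.

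Named are all 11 probes, their relatives, from each related list the called genes, or else the widest change, and the 5 genes with profiles closest to UHRF1 and to MKI67. Members and lists were chosen with earlier results of these data known. On simulated data the procedure was tested with known changes. Alternatives were other background corrections, scalings and filters, slide or replicate number as a block, other variance models, fold limits and leaving out each array; 2 that drop edge spots were chosen after seeing the data. Figures were drawn with matplotlib in Python.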

Additional observations from a re-analysis of the deposited data

How the results depend on the processing

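The 4 calls at 42 µM among 885 of all probes became 1 among 620 with the processed signal scaled to the 75th percentile, 0 among 1 with the slide as a block, 8 among 1269 with array weights, 2 among 366 with a log2 limit of 1, and 0 to 6 among 0 to 1221 when single arrays were left out. At 28 µM the latter gave 0 to 1. The replicate number as a block gave 8, and 1366 probes in all. Same-numbered arrays deviated together with r from -0.46 to 0.62, over 0.1 in 7 of 12 pairs. Of the 12 arrays, 5 correlated best with their own number. Whether the numbers pair the samples cannot be told from these values. With Edwards values scaled to the 75th percentile, 493 probes were called lower and 319 higher, against 413 and 472.

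The median over the genes kept its sign throughout, from -0.99 to -0.80 at 42 µM and from -0.65 to -0.35 at 28 µM without single arrays. DNMT1 at 28 µM turned to -0.11 with the processed signal, -0.19 with the slide as a block, -0.049 with it as a random block and -0.028 without the edge spots of both arrays, and ranged from -0.21 to 0.23 without single arrays. UHRF1 A_23_P208880 between the doses was 0.017 with array weights and ranged from -0.43 to 0.063. Of the relatives, HMGB2 minus HMGB1 ranged from -0.52 to 0.18, HMGB2 minus HMGB3 from -0.13 to 0.049 and DNMT1 minus DNMT3A from -0.39 to 0.12, all at 28 µM, and DNMT1 minus DNMT3B from -0.063 to 0.79 at 42 µM. The causes were not tested. MKI67 and UHRF1 A_32_P101235, the dimmest of the 11 over background, kept their sign in the 26 alternative fits of each comparison.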
